A study of Saccharomyces cerevisiae with 24 samples.

Results

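The 45 genes described here encode enzymes of arginine, histidine, branched-chain amino acid, lysine, aromatic amino acid and serine biosynthesis, together with the transcription factor GCN4 and the vitamin B6 genes SNZ1 and SNO1. They were taken by systematic identifier from a list drawn up by pathway and make up 45 of the 7218 features in the expression table. The rule itself uses no measured value, but the list was chosen with earlier results of these data known. By pathway there were 7 arginine genes (CPA1 among them), 5 histidine, 11 branched-chain, 7 lysine, 9 aromatic and 3 serine genes, and the remaining 3 were GCN4, SNZ1 and SNO1. The data were RNA sequencing libraries of budding yeast, 24 in all, from the M and G1 samples of 2 strains, each sequenced as polyA-selected RNA and as total RNA. There were 3 biological replicates of each of the 8 combinations of arrest, strain and library type. The strains were Ycg1Degron1, which carried pMET3-YCG1-3PK-3miniAID::KANMX6 with a K.lactis URA3 marker and also ADE2::pADH1-OsTIR1-9Myc, and the control, W303-1A Mat a with YCG1-3PK::K.lactis TRP1. In the first, the condensin subunit Ycg1 was expressed from the methionine-repressible MET3 promoter and fused to an auxin-inducible degron, and the plant F-box protein OsTIR1 was expressed from the ADH1 promoter in all cells. In the second, Ycg1 bore only the Pk epitope. By the study's strain list both carried mutant leu2, his3 and can1 alleles of the W303 background, Ycg1Degron1 also trp1-1, and the control also mutant ade2 and ura3. All cells grew at 25°C in synthetic medium without methionine, spent 1.5 h in the mating pheromone α-factor, and were then moved to rich medium (YPD) with auxin at 88 μg/ml for 2 h, still arrested, which gave the G1 sample. The same cultures were released into YPD with auxin and nocodazole for a further 2 h, which gave the M sample. Every sample had thus passed from a medium with a defined amino acid supplement into a rich one before it was taken, and M cells had been in rich medium for longer than G1 cells.

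Each column of the table was named by arrest, library type and replicate, with 18 or 14 added. The 18 and 14 were taken to be strain codes, as no factor but strain remained, but no label says which strain either one is. The codes were therefore compared as code 18 against code 14, and which of them is Ycg1Degron1 is not stated here. A difference between the codes is a difference between the 2 strains, with every allele in which they differ, and an effect of Ycg1 depletion cannot be told apart from it.

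As background, budding yeast makes every amino acid itself, and the enzymes of these pathways are under general amino acid control. When amino acids are short, the kinase Gcn2 is activated by uncharged tRNA and translation of the GCN4 mRNA rises through the short upstream reading frames of its leader, so that the GCN4 mRNA level is not a measure of Gcn4 protein. Gcn4 then activates many biosynthetic genes through the sequence TGACTCA. Single pathways have their own factors in addition, such as Leu3 for leucine, Lys14 for lysine and the Arg80-Arg81-Mcm1 complex for arginine, each responding to an intermediate or product of its pathway.

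Depth differed widely between the library types. The polyA libraries held 9.64e+06 to 2.17e+07 expected counts on genes, and the total RNA libraries 5.64e+05 to 9.30e+05, since 95.5% to 96.0% of their counts fell on ribosomal RNA. The 45 genes took 1.46% to 2.69% of the gene counts in polyA libraries and 1.30% to 2.29% in total libraries. All 45 passed the filter on low counts in polyA libraries, and 43 did in total libraries, where SNO1 and TRP1 were too low. Arrest markers followed the labels: FUS1, a pheromone-induced fusion gene, lay between 5.95 and 14.4 CPM in the 6 polyA libraries of M (median 8.25) and between 236 and 594 CPM in the 6 of G1 (median 455). CLB2, the mitotic cyclin, lay between 122 and 148 CPM in M (median 128) and between 10.99 and 23.1 CPM in G1 (median 15.7). CPM here means counts in 1e+06 of the TMM-scaled library. STE2, the α-factor receptor of MATa cells, was abundant, with 987 to 1602 CPM in the polyA libraries of G1 (median 1433), and STE3, the receptor of the opposite mating type, had at most 2.25 CPM there.

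The promoters of these genes carried Gcn4 sites far more often than promoters at large. In the 300 bases before the start codon, the letters TGACTCA on either strand were found for 20 of the 45 genes (44.4%), and for 157 of 6001 genes of the genome (2.62%). The Leu3 letters (CCGG, any 2 bases, CCGG), which read the same on both strands, were found for 3 of the 45 (6.67%; LEU1, LEU2 and BAT1) and for 0.15% of all genes, and the Lys14 letters TCCNNNGGA, likewise the same on both strands, for 4 of the 45 (8.89%; LYS1, LYS9, LYS12 and LEU9) and for 3.15%. The windows below are shown for some of the genes whose levels differed most between the codes, with LEU1 as the Leu3 example; they were read from the RefSeq R64 genome, run 5′ to 3′ on the strand of the gene, and have the motif in capitals (TGAGTCA is TGACTCA read on the other strand).
HIS4: cccatgcacagTGACTCAcgtttttttat
HIS5: cttggatctgtTGACTCActtcaattgat
ARG5,6: tcttatccgaaTGACTCAgtctacatcaa
ARG4: tagtagatgaaTGACTCActttttggata
LYS1: tactaagtcgaTGAGTCAaaaaagactct
LEU4: ttacgtgtaagTGACTCAgttctttcaaa
SNZ1: tcatgacataaTGACTCAgccgacaaggg
LEU1: acgaaaattCCGGGACCGGcgaaatttg

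Coordinates here are those of the whole printed window, and the strand is that of the gene. Distances run from the first base of the motif, read on that strand, to the start codon. The HIS4 window lay at chrIII:68515-68543, minus strand, with its motif 199 bases before the start codon. That of HIS5 lay at chrIX:142715-142743, plus strand, with its motif 202 bases before the start codon. For ARG5,6 the window lay at chrV:295176-295204, plus strand, with its motif 223 bases before the start codon. The ARG4 window lay at chrVIII:141564-141592, minus strand, with its motif 179 bases before the start codon. That of LYS1 lay at chrIX:420969-420997, minus strand, with its motif 250 bases before the start codon. In LYS1 the letters TGACTCA read on the strand opposite to the gene. For LEU4 the window lay at chrXIV:426838-426866, minus strand, with its motif 101 bases before the start codon. SNZ1 and SNO1 are divergent neighbours. The window printed for SNZ1 lay at chrXIII:458143-458171, plus strand, with its motif 254 bases before the start codon. The same motif also lies upstream of SNO1, 201 bases before the SNO1 start codon. The LEU1 window lay at chrVII:478851-478878, minus strand, with its Leu3 letters 217 bases before the start codon. ARG1 and ARG3 had no exact match to any of the 3 motifs in the 300 bases before their start codons.

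The clearest pattern was that these genes were lower in code 18 than in code 14 while cells were held in G1, and that most of this difference was not seen in M. In M polyA libraries the summed levels overlapped, with 24032, 23725 and 26865 CPM for code 18, against 24293, 23558 and 27150 CPM for code 14. The largest part was that of the branched-chain genes, with 13235, 13487 and 15465 CPM for code 18, against 12328, 12054 and 14068 CPM for code 14. The lysine sums lay apart, with 2631, 2396 and 2444 CPM for code 18, against 3776, 3664 and 3885 CPM for code 14. Of the 45 genes, 12 were lower in code 18 and 2 (BAT2 among them) were higher (edgeR's quasi-likelihood test, adjusted p under 0.05), where 4.71% of all genes were called lower, 7.14% higher and 11.9% in either direction. Without replicate 1 or 3 of code 18 or replicate 1 or 2 of code 14 in M, BAT2 was the single gene higher. The median difference was 0.00. The 12 were all 7 lysine genes, 4 arginine genes and SER3. No histidine or aromatic gene was called there: at an unadjusted p under 0.05 there was 1 of each, higher in code 18, and DESeq2 called 0.

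In G1 polyA libraries, 39 of the 45 were lower in code 18 and 1, BAT2, was higher by the same test, where 8.87% of all genes tested were lower, 6.77% higher and 15.6% called in either direction. Every arginine, histidine, lysine and serine gene was among the 39, with 8 of 9 aromatic and 6 of 11 branched-chain genes and all of GCN4, SNZ1 and SNO1. The median log2 difference of the 45 was -0.82, against 0.00 for all genes. In 42 of the 45, the 3 G1 libraries of code 18 all lay below the 3 of code 14, which held for 17.1% of all genes. Summed over the 45 genes, the G1 libraries of code 18 held 14502, 15955 and 15727 CPM, against 26290, 25109 and 22575 CPM for code 14. All 3 libraries of code 18 lay below all 3 of code 14.

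**Figure D1:**
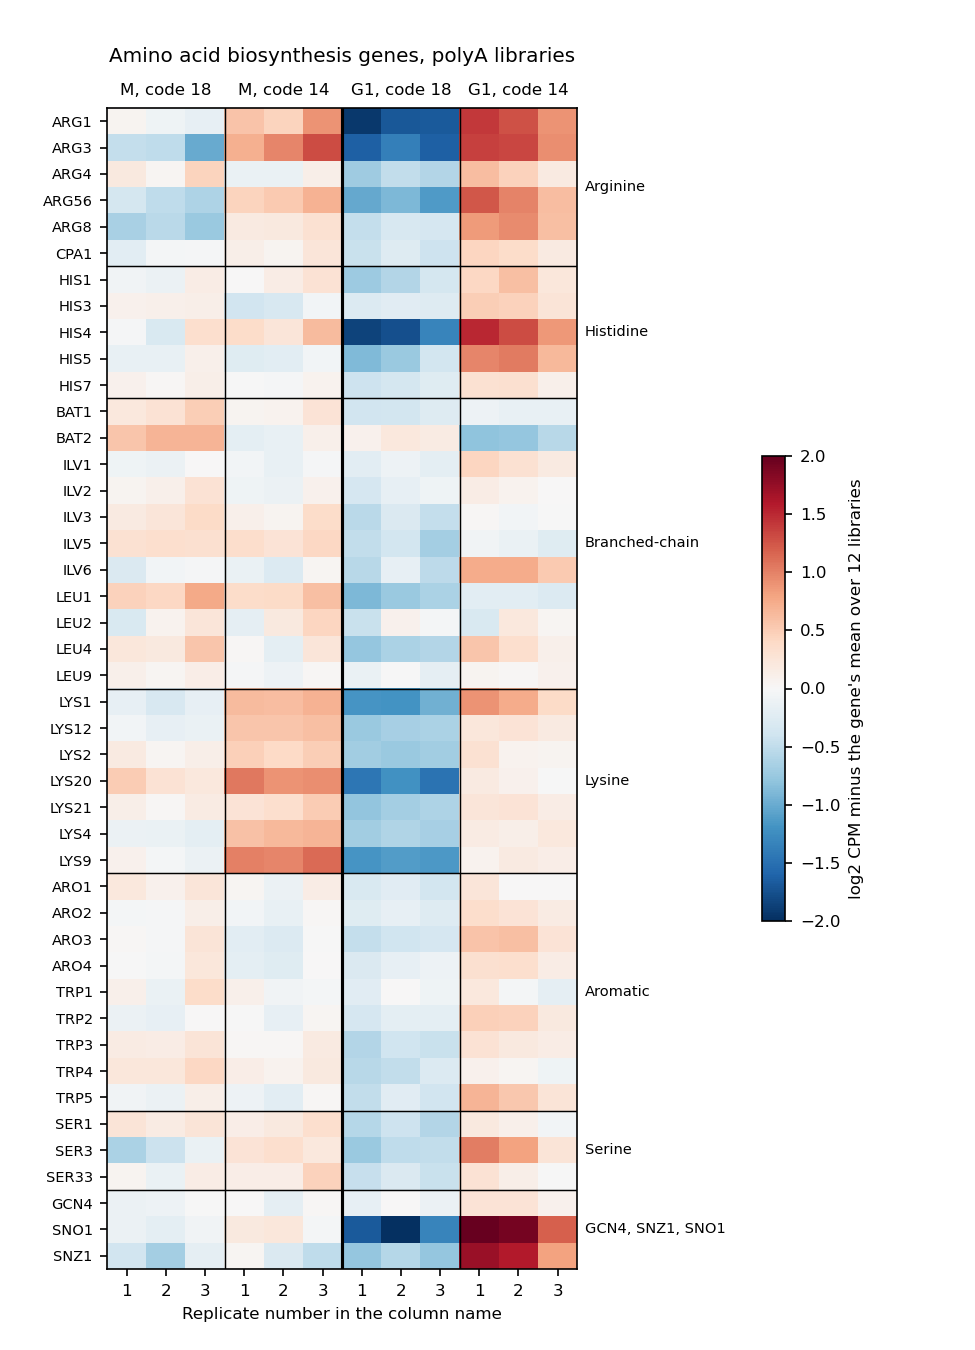
Heat map of 44 of the 45 genes (rows, grouped by pathway) in the 12 polyA libraries (columns, by arrest, strain code and replicate), coloured by log2 CPM minus the mean of that gene over the 12 libraries. The G1 block of code 18 is blue for most rows and the G1 block of code 14 red, whereas within the M blocks the lysine rows, SER3 and ARG1, ARG3, ARG5,6 and ARG8 are lower in code 18.

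The code by arrest interaction, which tests whether the log2 difference between the codes was the same in M as in G1, was called for 29 of the 45 in polyA libraries, all 29 with the code 18 minus code 14 difference higher in M than in G1. Over all genes tested, 3.65% were called, 2.76% in that direction and 0.891% in the other. The 29 were 8 of 9 aromatic, 5 of 5 histidine, 5 of 7 arginine, 4 of 7 lysine, 4 of 11 branched-chain genes and SER1, SNZ1 and SNO1. The median interaction was 0.62, against 0.02 for all genes. Without replicate 2 of M polyA code 14 the count was 19. With each culture, sampled in G1 and then in M, as a block, 23 were called: ARO1, ARG5,6, ILV1, TRP2, ARG3 and SER1 fell outside, at adjusted p of 0.053, 0.056, 0.058, 0.061, 0.064 and 0.054.

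Per kilobase of coding length, the polyA levels of the 45 genes spanned a wide range. The highest group means were those of LEU1 (1726 CPM per kb in M of code 18), ILV5 (1732 in M of code 14) and BAT1 (1719.7 in M of code 18) in M, and of GCN4 in G1 (1225 in code 18 and 1513 in code 14). The lowest were those of SNO1 (2.43 CPM per kb in G1 of code 18) and TRP1 (9.07 there).

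Markers of the arrest also differed between the codes, and their part in these results was not tested. In M polyA libraries FIG1, FUS1 and AGA1 were lower in code 18 (-1.43, -1.03 and -0.86), and none of CLB2, CDC20 and CDC5 was called (0.17, 0.17 and 0.15). In G1 polyA libraries FIG1 (-1.12 ± 0.22, edgeR adjusted p = 0.0048) and FUS1 (-0.81 ± 0.15, edgeR adjusted p = 0.0037) were lower in code 18, and AGA1 was not called (-0.32 ± 0.17, edgeR adjusted p = 0.24). STE2 (-0.42 ± 0.10, edgeR adjusted p = 0.012) and CLB2 (-0.56 ± 0.14, edgeR adjusted p = 0.018) were also lower there, while CDC20 (-0.06 ± 0.09, edgeR adjusted p = 0.73) and CDC5 (0.18 ± 0.09, edgeR adjusted p = 0.23) were not called.

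Total RNA libraries, made from the same RNA, also had more of the 45 genes lower in code 18 in G1 than in M. In M, 11 of the 43 genes tested were lower (7 lysine and 4 arginine genes) and BAT2 was higher, where 2.02% of all genes were lower, 1.82% higher and 3.85% called. Of the arginine calls, that of ARG8 was lost without replicate 1 or 3 of code 18 or replicate 2 or 3 of code 14 in M, or replicate 1 or 2 of code 14 in G1 (edgeR adjusted p 0.050 to 0.17). In 17 of the 45 the M libraries of code 18 all lay below those of code 14, which held for 10.5% of all genes, and 4 lay above (10.2%). In G1, 32 of the 43 were lower in code 18 and BAT2 was higher, where 4.11% of all genes were lower, 4.57% higher and 8.68% called. The median was -0.85. The G1 libraries of code 18 all lay below those of code 14 in 36 of the 45, the untested SNO1 among them, where 11.8% of all genes tested had this. The interaction was called for 16 genes, each with the code 18 minus code 14 difference higher in M than in G1, where 1.28% of all genes were called in that direction, 1.36% in the other and 2.63% in either. Without replicate 2 of G1 total code 14 the count was 10. With rRNA genes kept in the table it was 13. With the culture as a block ARO1 was lost (adjusted p = 0.054) and ILV6 gained (0.024). Since both library types share the RNA samples, they repeat the sequencing and not the cultures.

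ARG1, HIS4 and SNZ1 are given here in total libraries. ARG1 had 300.02, 267 and 250.3 CPM in M of code 18, against 437, 438 and 541 CPM in M of code 14. In G1, ARG1 had 122, 102 and 139.7 CPM in code 18, against 764, 736 and 574 CPM in code 14. HIS4 had 250.4, 241 and 341 CPM in M of code 18, against 401, 363 and 497 CPM in M of code 14. In G1, HIS4 had 100.1, 101 and 160.0 CPM in code 18, against 852, 758 and 579 CPM in code 14. SNZ1, in these shallower libraries, had 34.2, 44.1 and 44.00 CPM in M of code 18, against 52.05, 39.99 and 51.7 CPM in M of code 14. In G1, SNZ1 had 26.01, 41.8 and 27.05 CPM in code 18, against 132, 123 and 119.7 CPM in code 14. In each of the 3 genes the G1 libraries of code 18 were the lowest or among the lowest and those of code 14 the highest. SNO1, with the largest difference in polyA libraries, was too low to be tested in total libraries, where in G1 it had 2.60, 2.46 and 3.38 CPM in code 18, against 7.70, 10.1 and 5.63 CPM in code 14, a smaller gap between groups that did not overlap.

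**Figure D2:**
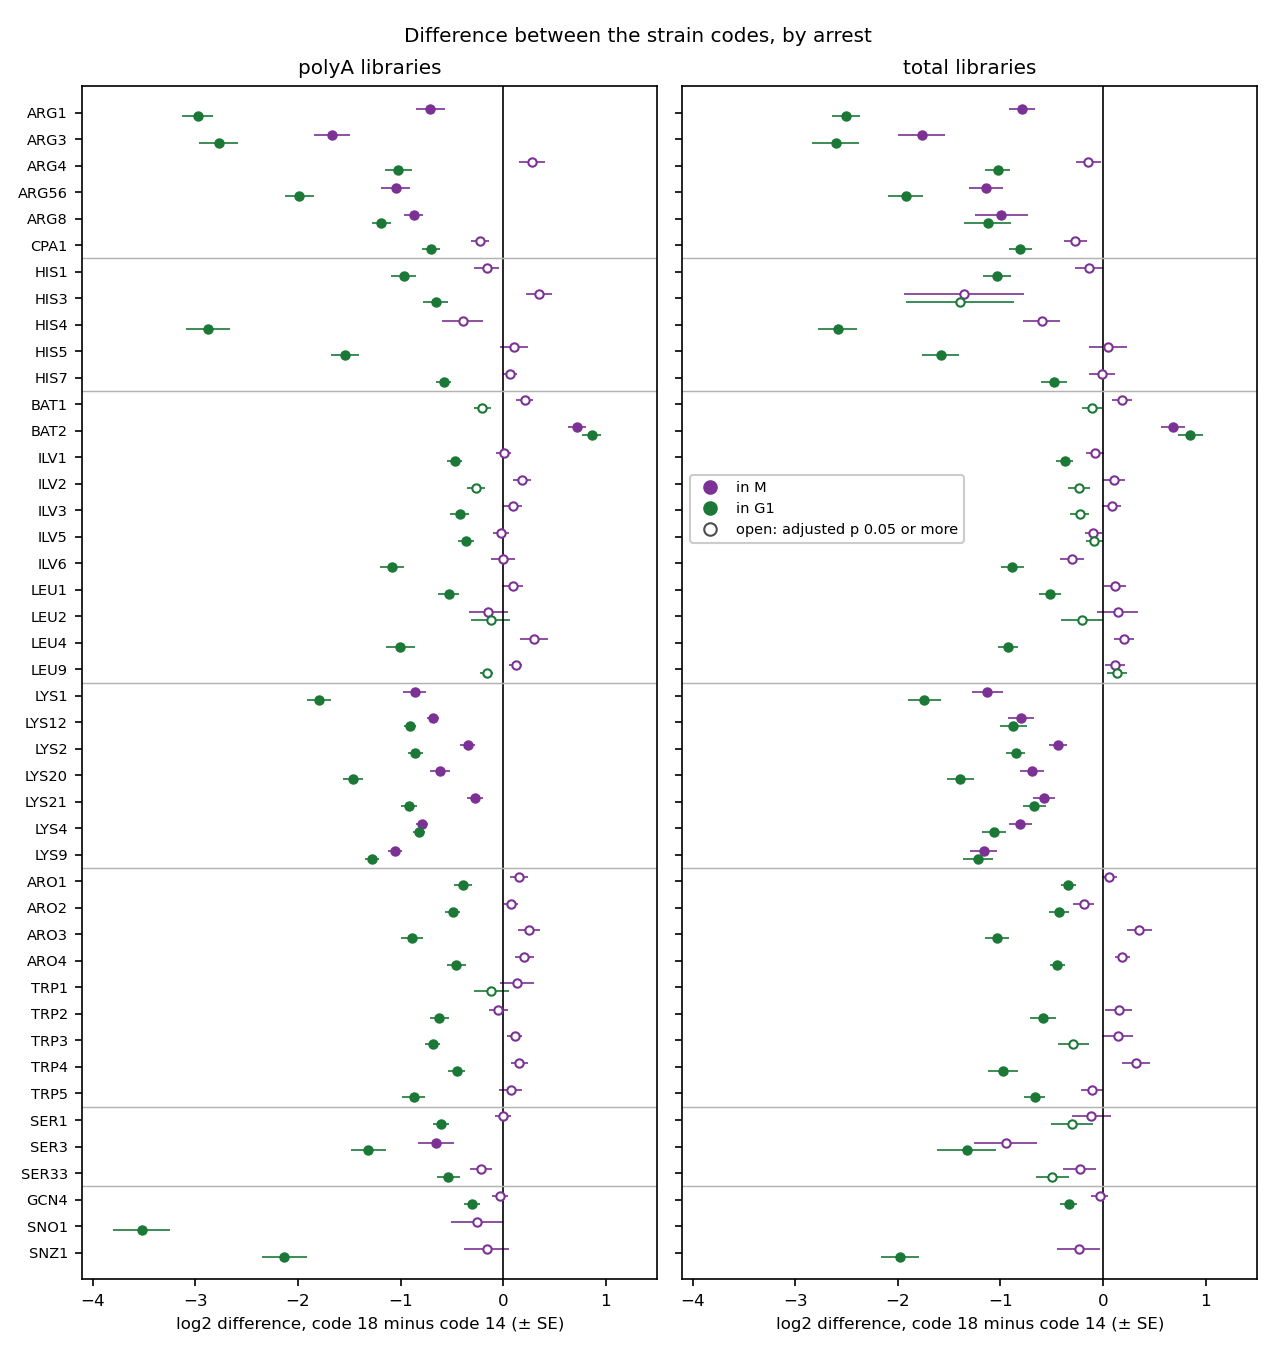
Log2 difference of code 18 minus code 14 (horizontal axis, ± SE) for each of 44 genes (vertical axis, grouped by pathway) in M (purple) and G1 (green), from polyA libraries on the left and total libraries on the right; open points had an edgeR adjusted p of 0.05 or more. Green points lie left of purple points for nearly all genes, BAT2 lies right of 0 in both arrests, and the lysine genes lie left of 0 in both.

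Across the arrests, averaged over both codes, 22 of the 45 genes were higher in M than in G1 and 4 were lower in polyA libraries, where 51.0% of all genes tested were called (26.1% higher, 24.9% lower). The share of the 45 called higher was thus above the background, and that called lower was below it. Every lysine gene was higher in M, and 6 of 11 branched-chain, 3 of 7 arginine, 3 of 9 aromatic, 2 of 3 serine and 1 of 5 histidine genes were. The 4 that were lower were SNZ1, ARG8, ILV6 and ILV1. Only 2 were lower without replicate 2 of code 18 in G1, replicate 1 of code 18 in M, or replicate 2 of code 14 in either arrest, and 7 were without replicate 3 of code 14 in G1. ILV6 was lost in 4 of the 12 refits without 1 library (edgeR adjusted p 0.053 to 0.061), and ILV1 in 8 (0.055 to 0.085) and with the culture as a block (0.060). In total libraries 15 of 43 were higher and 4 (SNZ1, ARG8, ILV6 and TRP5) lower, where 23.8% of all genes were called (11.8% lower). By DESeq2, or without replicate 2 of code 18 in G1, 1 was lower. With library totals, or without replicate 3 of code 18 in G1, replicate 1 of code 18 in M, replicate 1 of code 14 in either arrest or replicate 2 of code 14 in M, 2 were lower. ILV6 was lost in 9 of the refits without 1 library (0.051 to 0.14), ARG8 in 8 (0.075 to 0.11) and SNZ1 in 1 (0.071). Within code 18, 35 genes were higher in M and 1 (ARG8) lower, against backgrounds over all genes of 20.4% and 17.2% (37.6% in either direction). Within code 14, 9 were higher and 18 lower, against backgrounds of 18.0% and 18.2% (36.1%). Groups did not overlap in code 18 for 37 genes with M above G1, where 26.8% of all genes had this. The median log2 difference of the 45 was 0.53 within code 18 and -0.19 within code 14. In total libraries 22 were higher and 0 lower within code 18, where 14.2% of all genes were called (7.02% higher, 7.14% lower), and ARG8 had -0.45 ± 0.26, edgeR adjusted p = 0.30. At an unadjusted p under 0.05, 0 of the 43 lay lower there. Within code 14 in total libraries 7 were higher and 11 lower, where 16.3% were called (9.07% higher, 7.27% lower).

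All 7 lysine genes were lower in code 18 in both arrests (median log2 difference -0.69 in M and -0.92 in G1), and all 7 were higher in M than in G1 over both codes, 7 of 7 within code 18 and 5 of 7 within code 14. Lysine is made through α-aminoadipate, and LYS20 and LYS21 encode the homocitrate synthases of the committed step. LYS20 (YDL182W) had 625, 533 and 509 CPM in M of code 18, against 911, 814 and 834 CPM in M of code 14. In G1, LYS20 had 162, 189 and 157 CPM in code 18, against 497, 468 and 435 CPM in code 14. No group overlapped another, with M above G1 within each code. LYS20 was the gene of the 45 with the largest arrest difference, M over G1 (1.29 ± 0.07, edgeR adjusted p = 2.2e-08), and was higher within code 18 (1.72) and within code 14 (0.87). LYS21 (YDL131W), its isoenzyme, had 402, 376 and 416 CPM in M of code 18, against 448, 469 and 525 CPM in M of code 14. In G1, LYS21 had 215, 230.2 and 240.4 CPM in code 18, against 438, 448 and 411 CPM in code 14. It was also higher in M over both codes (0.48 ± 0.05, edgeR adjusted p = 1.6e-05), and within code 14 its M and G1 libraries were not called apart (0.15 ± 0.08, edgeR adjusted p = 0.14). RSEM divides reads that fit both near-identical genes, so the split between this pair is uncertain. Per kilobase of coding length, LYS20 averaged 432 and LYS21 301 CPM per kb in M of code 18, and in G1 of code 18 LYS20 averaged 132 and LYS21 173 CPM per kb.

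LYS9 (YNR050C), saccharopine dehydrogenase of the glutamate-forming step, had 268, 247 and 234 CPM in M of code 18, against 505, 497 and 552 CPM in M of code 14. In G1, LYS9 had 112, 117 and 114 CPM in code 18, against 266, 286 and 278 CPM in code 14. Its M libraries of code 14 were the highest and its G1 libraries of code 18 the lowest, while M of code 18 and G1 of code 14 were close to each other. LYS9 was higher in M (1.02 ± 0.05, edgeR adjusted p = 9.5e-09) and lower in code 18 both in M (-1.05 ± 0.07, edgeR adjusted p = 2.6e-06) and in G1 (-1.28 ± 0.07, edgeR adjusted p = 3.7e-07), and its interaction was not called (0.23 ± 0.10, edgeR adjusted p = 0.21). LYS1 (YIR034C), which encodes the saccharopine dehydrogenase of the last step, had 151, 136 and 152 CPM in M of code 18, against 265, 260.5 and 274 CPM in M of code 14. In G1, LYS1 had 74.8, 74.4 and 87.1 CPM in code 18, against 316, 283 and 222 CPM in code 14. Code 18 lay below code 14 in both arrests, with log2 differences of -0.86 ± 0.11 in M and -1.80 ± 0.12 in G1, and here the interaction was called (0.93 ± 0.16, edgeR adjusted p = 0.0071). LYS2, LYS4 and LYS12, of intermediate steps, were lower in code 18 in M (-0.34, -0.79 and -0.69) and in G1 (-0.86, -0.82 and -0.91). LYS21 was also called in M (-0.27 ± 0.08, edgeR adjusted p = 0.036), but leaving out replicate 2 or 3 of code 14 or any replicate of code 18 in M took its adjusted p to between 0.060 and 0.12. In total libraries, 7 of 7 lysine genes were lower in code 18 in M and in G1.

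All 7 arginine genes were lower in code 18 in G1 (log2 differences of -2.98 to -0.70, median -1.30), and in M 4 were lower. ARG1, argininosuccinate synthetase (YOL058W, chrXV:219211-220473, R64), had 392, 353 and 338 CPM in M of code 18, against 557, 514 and 699.98 CPM in M of code 14. In G1, ARG1 had 98.95, 117 and 118 CPM in code 18, against 1004, 912 and 706 CPM in code 14. Code 18 lay below code 14 in M (-0.71 ± 0.14, edgeR adjusted p = 0.0065) and, with a wider gap, in G1 (-2.98 ± 0.15, edgeR adjusted p = 2.0e-07), and the interaction was called (2.27 ± 0.20, edgeR adjusted p = 1.3e-04). Between the arrests ARG1 was higher in M within code 18 (1.70 ± 0.14, edgeR adjusted p = 3.1e-06) and lower in M within code 14 (-0.57 ± 0.14, edgeR adjusted p = 0.007). ARG3 (YJL088W), ornithine carbamoyltransferase, had 47.6, 46.7 and 33.2 CPM in M of code 18, against 108, 132 and 164 CPM in M of code 14. In G1, ARG3 had 21.5, 25.8 and 21.3 CPM in code 18, against 171, 169 and 127 CPM in code 14. It was the gene with the largest code difference in M (-1.67 ± 0.18, edgeR adjusted p = 1.1e-04) and was lower in G1 too (-2.77 ± 0.19, edgeR adjusted p = 1.6e-06). Its arrest difference, M over G1, was called (0.34 ± 0.12, edgeR adjusted p = 0.036), but was not with the culture as a block (adjusted p = 0.062).

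ARG5,6 (YER069W), which encodes acetylglutamate kinase and acetylglutamyl-phosphate reductase as a precursor that is cleaved in mitochondria, had 114, 102 and 94.4 CPM in M of code 18, against 199, 208 and 236 CPM in M of code 14. In G1, ARG5,6 had 71.9, 78.3 and 66.03 CPM in code 18, against 345, 289 and 223 CPM in code 14. All 3 libraries of code 18 lay below all 3 of code 14 in M (log2 difference -1.05 ± 0.14) and in G1 (-1.99 ± 0.14). ARG8 (YOL140W), acetylornithine aminotransferase, had 50.7, 54.5 and 47.6 CPM in M of code 18, against 90.2, 90.9 and 98.3 CPM in M of code 14. In G1, ARG8 had 57.4, 63.8 and 62.8 CPM in code 18, against 144, 153 and 121 CPM in code 14. Its code difference was called in M (-0.87 ± 0.09, edgeR adjusted p = 1.0e-04) and in G1 (-1.19 ± 0.09, edgeR adjusted p = 5.2e-06) with no call of interaction (0.32 ± 0.13, edgeR adjusted p = 0.19), and it was the only one of the 45 lower in M within code 18 in polyA libraries (-0.27 ± 0.09, edgeR adjusted p = 0.037). CPA1, of carbamoyl phosphate synthesis, had a G1 difference of -0.70 ± 0.09, and ARG4, argininosuccinate lyase, of -1.02 ± 0.13. Neither was called in M, CPA1 with -0.22 ± 0.09, edgeR adjusted p = 0.13 and ARG4 with 0.28 ± 0.13, edgeR adjusted p = 0.19.

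**Figure D3:**
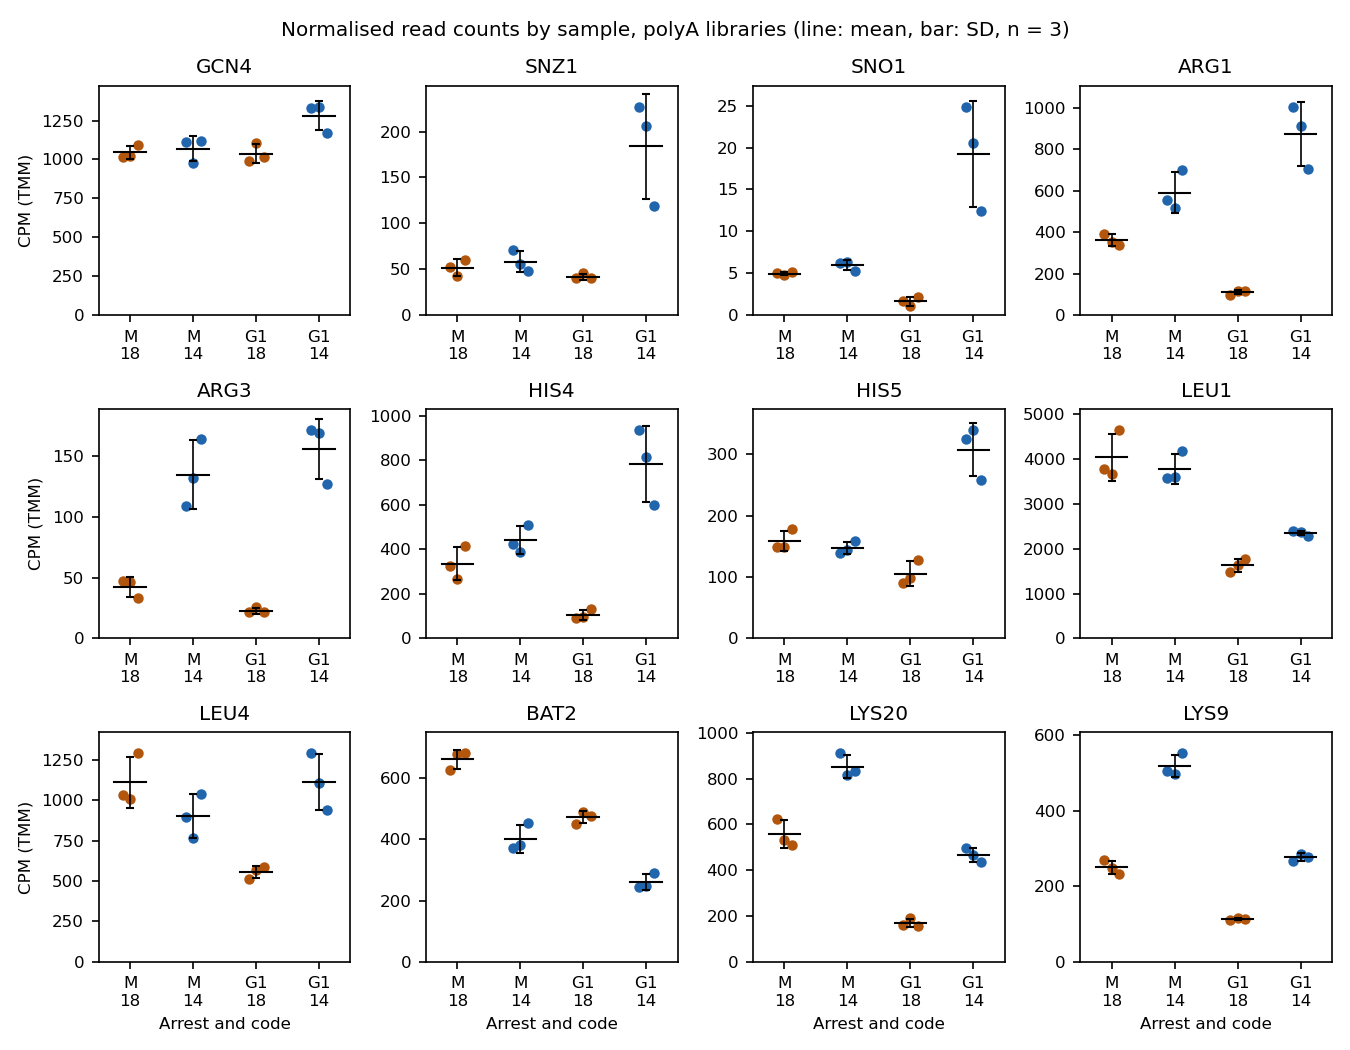
Normalised read counts (vertical axis, CPM after TMM scaling, from 0) of 12 genes in each polyA library, by arrest and strain code (horizontal axis; orange, code 18; blue, code 14), with the mean as a line and the SD as a bar (n = 3). In G1 the codes do not overlap in any of the 12. In M they overlap in GCN4, SNZ1, HIS4, HIS5, LEU1 and LEU4, and lie apart in ARG1, ARG3, BAT2, LYS20, LYS9 and, by a narrow gap, SNO1.

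All 5 histidine genes were lower in code 18 in G1 (median log2 difference -0.97), none was called between the codes in M (median 0.07), and all 5 had a called interaction. HIS4, a trifunctional enzyme of the pathway (YCL030C, chrIII:65934-68333), had 325, 266 and 415 CPM in M of code 18, against 424, 388 and 511 CPM in M of code 14. In G1, HIS4 had 90.9, 97.4 and 133 CPM in code 18, against 936, 814 and 601 CPM in code 14. The M groups overlapped (-0.40 ± 0.20, edgeR adjusted p = 0.24), and the G1 groups lay far apart (-2.87 ± 0.21, edgeR adjusted p = 3.6e-06). In M total libraries the HIS4 groups did not overlap, with code 18 lower, but HIS4 was not called. It was called there in 2 refits without 1 library (edgeR adjusted p 0.039 and 0.043). In polyA libraries the interaction was 2.48 ± 0.28, edgeR adjusted p = 6.2e-04. Averaged over the codes HIS4 was higher in M (0.41 ± 0.14, edgeR adjusted p = 0.028), a call that was lost without replicate 3 of either code in M, replicate 3 of code 14 in G1, or replicate 1 or 2 of code 18 in G1 (adjusted p 0.060 to 0.074); it was higher within code 18 (1.65) and lower within code 14 (-0.83). HIS5 (YIL116W), histidinol-phosphate aminotransferase, had 149, 149 and 178 CPM in M of code 18, against 139.5, 143 and 159 CPM in M of code 14. In G1, HIS5 had 89.6, 99.2 and 128 CPM in code 18, against 325, 339.5 and 258 CPM in code 14. It was not called in M (0.11 ± 0.14, edgeR adjusted p = 0.69), was lower in code 18 in G1 (-1.54 ± 0.14, edgeR adjusted p = 2.0e-05), and the interaction was 1.65 ± 0.19, edgeR adjusted p = 6.9e-04. Its mean arrest difference, M over G1, missed the threshold (-0.24 ± 0.10, edgeR adjusted p = 0.058) and passed it with the culture as a block (adjusted p = 0.039). HIS1, of the committed step, and HIS7 had G1 differences of -0.97 ± 0.12 and -0.58 ± 0.07.

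HIS3, LEU2 and TRP1 are common auxotrophic markers, and the strain list gives mutant alleles of his3 and leu2 in both strains and of trp1 in Ycg1Degron1. HIS3 (YOR202W), imidazoleglycerol-phosphate dehydratase, had 10.8, 11.04 and 11.2 CPM in M of code 18, against 7.86, 8.19 and 9.89 CPM in M of code 14. In G1, HIS3 had 8.54, 8.75 and 8.63 CPM in code 18, against 14.4, 14.2 and 12.2 CPM in code 14. It was among the lowest of the 45 and like the other histidine genes was lower in code 18 in G1 and not called in M (0.35 ± 0.12, edgeR adjusted p = 0.096 in M, -0.66 ± 0.12, edgeR adjusted p = 0.0035 in G1). TRP1 (YDR007W), phosphoribosylanthranilate isomerase, had 7.08, 6.003 and 8.45 CPM in M of code 18, against 7.05, 6.28 and 6.38 CPM in M of code 14. In G1, TRP1 had 5.60, 6.61 and 6.16 CPM in code 18, against 7.63, 6.40 and 5.79 CPM in code 14. Its groups overlapped in both arrests, and neither code difference was called (0.14 ± 0.17, edgeR adjusted p = 0.67 in M, -0.12 ± 0.17, edgeR adjusted p = 0.69 in G1). LEU2 (YCL018W), β-isopropylmalate dehydrogenase, had 175, 229 and 257 CPM in M of code 18, against 191, 249 and 292 CPM in M of code 14. In G1, LEU2 had 159.7, 229 and 210.3 CPM in code 18, against 176, 252 and 223 CPM in code 14. Its replicates spread more than the groups did (-0.15 ± 0.19, edgeR adjusted p = 0.69 in M, -0.12 ± 0.19, edgeR adjusted p = 0.72 in G1). In these polyA libraries replicate 1 was the lowest in every group, and code 14 lay above code 18 at each replicate number in both arrests. That order did not hold in M total libraries, where LEU2 had 126.8, 149.8 and 149.9 CPM in code 18, against 88.5, 126.9 and 167.7 CPM in code 14. For HIS3 the M total libraries had the reverse of its polyA order, with group means of 4.38 CPM in code 18 and 11.3 CPM in code 14. Those groups overlapped, were not called apart, and rested on 1 to 12 counts in a library. Counts per gene do not tell which allele the reads came from.

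Of the 11 leucine, isoleucine and valine genes, 6 were lower and 1 higher in code 18 in G1 (median log2 difference -0.36), and in M 1 was higher and none lower (median 0.09). LEU1 (YGL009C), isopropylmalate isomerase, had 3787, 3676 and 4649.7 CPM in M of code 18, against 3573, 3594 and 4176 CPM in M of code 14. In G1, LEU1 had 1473, 1646 and 1776 CPM in code 18, against 2396, 2374 and 2294 CPM in code 14. All 6 M libraries lay above all 6 of G1 (0.995 ± 0.07, edgeR adjusted p = 3.8e-07), and it was higher in M within code 18 (1.31) and within code 14 (0.68). ILV5 (YLR355C), acetohydroxyacid reductoisomerase, had 1995, 2046 and 2031 CPM in M of code 18, against 2064, 1958 and 2154 CPM in M of code 14. In G1, ILV5 had 1148, 1253 and 1016 CPM in code 18, against 1543, 1478 and 1375 CPM in code 14. It too was higher in M in both codes (0.66 ± 0.06, edgeR adjusted p = 1.5e-06), and its code difference was not called in M (-0.02 ± 0.08, edgeR adjusted p = 0.89) and was small in G1 (-0.36 ± 0.08, edgeR adjusted p = 0.009). ILV6 (YCL009C), the regulatory subunit of acetolactate synthase, had 328, 385 and 393 CPM in M of code 18, against 366, 331 and 410.4 CPM in M of code 14. In G1, ILV6 had 272, 357 and 279 CPM in code 18, against 675, 672 and 578 CPM in code 14. Its G1 libraries of code 14 lay above the other 9 (-0.001 ± 0.12, edgeR adjusted p = 1.00 in M, -1.08 ± 0.12, edgeR adjusted p = 1.2e-04 in G1). ILV2, the catalytic subunit, was not called in G1 (-0.27 ± 0.09, edgeR adjusted p = 0.062), and the subunits were not tested against each other. ILV2 did pass with the replicate number as a block across the codes (edgeR adjusted p = 0.045), though no label states that the codes share it. ILV3 and ILV1 had G1 differences of -0.42 ± 0.09 and -0.47 ± 0.07.

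Among the branched-chain genes are 2 isoenzyme pairs. LEU4 (YNL104C), the main α-isopropylmalate synthase, had 1033, 1012 and 1293 CPM in M of code 18, against 897, 767 and 1041 CPM in M of code 14. In G1, LEU4 had 514, 567 and 589 CPM in code 18, against 1293, 1109 and 943 CPM in code 14. It was not called in M (0.30 ± 0.14, edgeR adjusted p = 0.19), it was lower in code 18 in G1 (-1.002 ± 0.14, edgeR adjusted p = 5.4e-04), and the interaction was 1.31 ± 0.19, edgeR adjusted p = 0.0041. LEU9 (YOR108W), which encodes a minor form of the same enzyme, had 439, 421 and 449 CPM in M of code 18, against 404, 381 and 417 CPM in M of code 14. In G1, LEU9 had 374, 408 and 362 CPM in code 18, against 424, 418 and 435 CPM in code 14. LEU9 stayed within a narrow range and was called in neither arrest (0.12 ± 0.06, edgeR adjusted p = 0.26 in M, -0.16 ± 0.06, edgeR adjusted p = 0.12 in G1). BAT1 (YHR208W), the mitochondrial branched-chain aminotransferase, had 1868, 1967 and 2263 CPM in M of code 18, against 1659.6, 1680.3 and 1939 CPM in M of code 14. In G1, BAT1 had 1232, 1250.4 and 1340.5 CPM in code 18, against 1493, 1454 and 1454 CPM in code 14. Its code difference was not called (0.21 ± 0.08, edgeR adjusted p = 0.14 in M, -0.20 ± 0.08, edgeR adjusted p = 0.12 in G1), and it was higher in M (0.47 ± 0.06, edgeR adjusted p = 4.1e-05). BAT2 (YJR148W), the cytosolic form, had 625, 678 and 681 CPM in M of code 18, against 370.4, 381 and 453 CPM in M of code 14. In G1, BAT2 had 452, 490.4 and 478 CPM in code 18, against 244, 247 and 290.1 CPM in code 14. It was the only one of the 45 higher in code 18 in both arrests (0.72 ± 0.09, edgeR adjusted p = 3.6e-04 in M, 0.86 ± 0.09, edgeR adjusted p = 8.1e-05 in G1), with no overlap of the codes, and total libraries gave 0.68 ± 0.12 in M and 0.85 ± 0.12 in G1. BAT2 was also higher in M than in G1 (0.55 ± 0.06, edgeR adjusted p = 2.1e-05), and its interaction was not called (-0.14 ± 0.13, edgeR adjusted p = 0.58). The BAT1 and BAT2 differences between the codes were not tested against each other.

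Of the 9 aromatic genes, 8 (all but TRP1) were lower in code 18 in G1 (median log2 difference -0.49), and none was called in M (median 0.14). TRP4 (YDR354W), anthranilate phosphoribosyltransferase, had 146, 146 and 166 CPM in M of code 18, against 137, 130.2 and 143 CPM in M of code 14. In G1, TRP4 had 85.2, 88.8 and 103 CPM in code 18, against 133, 129 and 117 CPM in code 14. Its lowest group was G1 of code 18 (-0.45 ± 0.09, edgeR adjusted p = 0.0037), and it was higher in M over both codes (0.42 ± 0.06, edgeR adjusted p = 1.1e-04). TRP3 (YKL211C), a bifunctional subunit of anthranilate synthase, had 207, 204 and 219 CPM in M of code 18, against 187, 186 and 209 CPM in M of code 14. In G1, TRP3 had 123, 140.1 and 135 CPM in code 18, against 226, 210.2 and 203 CPM in code 14. Its G1 libraries of code 18 likewise lay below all others (-0.69 ± 0.07, edgeR adjusted p = 8.3e-05; M over G1 0.27 ± 0.05, edgeR adjusted p = 0.001). ARO3 and ARO4 encode the DAHP synthases inhibited by phenylalanine and tyrosine. ARO3 (YDR035W) had 464, 449 and 548 CPM in M of code 18, against 394, 378 and 457 CPM in M of code 14. In G1, ARO3 had 329, 347 and 361 CPM in code 18, against 678, 690.2 and 555 CPM in code 14. The G1 libraries of code 14 were its highest (0.25 ± 0.11, edgeR adjusted p = 0.16 in M, -0.89 ± 0.11, edgeR adjusted p = 2.1e-04 in G1; interaction 1.14 ± 0.15, edgeR adjusted p = 0.0018). ARO4 (YBR249C) had 900.1, 880.4 and 1059.9 CPM in M of code 18, against 791, 763 and 909 CPM in M of code 14. In G1, ARO4 had 736, 803 and 845 CPM in code 18, against 1128, 1143 and 999 CPM in code 14, also with code 14 above code 18 in G1 and with overlapping groups in M (0.21 ± 0.10, edgeR adjusted p = 0.20 in M, -0.46 ± 0.10, edgeR adjusted p = 0.0071 in G1). The M groups did not overlap for TRP4 in either library type, or for ARO3 and ARO4 in total libraries, with code 18 above code 14. ARO2 had the reverse order in M total libraries, and no aromatic gene was called there. Per kilobase ARO4 exceeded ARO3 in every group, for example 714 against 310.5 CPM per kb in G1 of code 18 (group means). TRP2, TRP5, ARO1 and ARO2 had G1 differences of -0.62, -0.87, -0.39 and -0.49.

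SER3 and SER33 encode the 3-phosphoglycerate dehydrogenases that open serine synthesis. SER3 (YER081W) had 41.5, 48.2 and 59.2 CPM in M of code 18, against 77.7, 81.6 and 75.2 CPM in M of code 14. In G1, SER3 had 38.7, 45.6 and 45.9 CPM in code 18, against 132, 113 and 77.3 CPM in code 14. It was lower in code 18 in M (-0.65 ± 0.17, edgeR adjusted p = 0.029) and in G1 (-1.31 ± 0.17, edgeR adjusted p = 4.0e-04), and the call in M was lost without any of the 3 replicates of code 14 or without replicate 1 or 2 of code 18 there (adjusted p 0.051 to 0.12). SER33 (YIL074C) had 84.4, 73.6 and 90.1 CPM in M of code 18, against 88.9, 88.7 and 111 CPM in M of code 14. In G1, SER33 had 59.1, 66.1 and 59.7 CPM in code 18, against 98.9, 87.6 and 80.8 CPM in code 14. It was not called in M (-0.22 ± 0.11, edgeR adjusted p = 0.25), lower in code 18 in G1 (-0.53 ± 0.11, edgeR adjusted p = 0.0069), and higher in M over both codes (0.27 ± 0.08, edgeR adjusted p = 0.013). SER1 (YOR184W), phosphoserine aminotransferase, had 188, 176 and 189 CPM in M of code 18, against 173, 181 and 200.1 CPM in M of code 14. In G1, SER1 had 106, 118 and 105 CPM in code 18, against 180.5, 168 and 152 CPM in code 14. In M its codes overlapped (adjusted p = 0.99 by edgeR), and in G1 code 18 was lower (-0.61 ± 0.08, edgeR adjusted p = 4.2e-04). In G1 total libraries SER3 was the only serine gene called lower in code 18. The SER1 groups overlapped there, and those of SER33 did not.

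GCN4, SNZ1 and SNO1 differed in scale. GCN4 (YEL009C, chrV:138918-139763) was among the most abundant of the 45, with 1018, 1022 and 1095 CPM in M of code 18, against 1112, 975 and 1117 CPM in M of code 14. In G1, GCN4 had 988, 1103 and 1017 CPM in code 18, against 1330.2, 1338 and 1173 CPM in code 14. The codes overlapped in M (-0.03 ± 0.08, edgeR adjusted p = 0.85), and in G1 code 18 lay below code 14 (-0.31 ± 0.08, edgeR adjusted p = 0.02; total libraries -0.33 ± 0.08, edgeR adjusted p = 0.015). That call in polyA libraries was lost without replicate 1 or 2 of code 14 or replicate 1 or 3 of code 18 in G1 (adjusted p 0.070 to 0.083), and in total libraries without replicate 1 or 2 of code 14 or replicate 3 of code 18 (0.062 to 0.071). Its interaction was not called (0.27 ± 0.11, edgeR adjusted p = 0.18), and within code 14 it was lower in M than in G1 (-0.26 ± 0.08, edgeR adjusted p = 0.02). SNZ1 (YMR096W), a subunit of the pyridoxal phosphate synthase, had 52.6, 42.6 and 60.6 CPM in M of code 18, against 70.7, 55.9 and 48.2 CPM in M of code 14. In G1, SNZ1 had 40.1, 45.9 and 40.1 CPM in code 18, against 227, 206 and 119 CPM in code 14. The G1 libraries of code 14 stood above the other 9 (-0.16 ± 0.22, edgeR adjusted p = 0.70 in M, -2.13 ± 0.22, edgeR adjusted p = 6.8e-05 in G1). SNO1 (YMR095C), the glutaminase partner of Snz1, was the lowest of the 45 per kilobase in 3 of the 4 groups' polyA means, with 4.9995, 4.74 and 5.18 CPM in M of code 18, against 6.23, 6.37 and 5.25 CPM in M of code 14. In G1, SNO1 had 1.70, 1.07 and 2.16 CPM in code 18, against 24.9, 20.5 and 12.4 CPM in code 14. It had the largest code difference of the 45 in G1 (-3.52 ± 0.28, edgeR adjusted p = 5.9e-06) and the largest interaction (3.27 ± 0.38, edgeR adjusted p = 6.2e-04), and its codes were not called apart in M (-0.26 ± 0.26, edgeR adjusted p = 0.59). SNZ1 has close homologues (SNZ2 and SNZ3), among which RSEM divides shared reads.

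Genes with and without the exact Gcn4 letters both followed the G1 pattern. Of the 20 genes with a match, 18 were lower in code 18 in G1 (median log2 difference -0.98), as were 21 of the 25 without (median -0.66). The interaction was called for 15 of the 20 and for 14 of the 25. In M, 4 of the 20 and 8 of the 25 were lower. With the Lys14 letters, 3 of 4 genes (LYS1, LYS9 and LYS12, not LEU9) were lower in code 18 in M. Of the 3 genes with the Leu3 letters, LEU1 alone was lower in G1. These counts describe letters in a window and were not tested.

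Other amino acid genes, listed by pathway, were counted beside the 45. Of 26 further biosynthetic genes, 17 were lower in code 18 in G1 polyA libraries and 1 higher (ARO9, aromatic aminotransferase II, 0.91), with a median of -0.33; the lowest were ARG7 (-1.37), of ornithine synthesis, and HOM2 (-1.03), of the threonine and methionine branch. Over all genes 8.87% were lower and 6.77% higher there. In M, 2 were lower and 3 higher, where 4.71% and 7.14% of all genes were. Of 12 regulators, 2 were lower in G1, where 8.87% of all genes were: PCL5, the cyclin that promotes Gcn4 breakdown (-0.97 ± 0.15, edgeR adjusted p = 0.0014), and GCN2, the kinase of general control (-0.24 ± 0.06, edgeR adjusted p = 0.014). No regulator was called between the codes in M (3 of 12 had an unadjusted p under 0.05 by edgeR), where LYS14 had -0.04 ± 0.05 and LEU3 -0.13 ± 0.09. Of 11 amino acid permeases, 6 were lower in code 18 in G1 (8.87% of all genes), most of all GAP1, the general permease (-3.04 ± 0.18, edgeR adjusted p = 5.3e-07), AGP1 (-2.23 ± 0.10, edgeR adjusted p = 1.3e-07) and the methionine permease MUP1 (-2.08 ± 0.33, edgeR adjusted p = 0.0014). In M, 4 permeases were lower (4.71% of all genes), namely GAP1 (-2.21), MUP1 (-1.65), AGP1 (-0.79) and the lysine permease LYP1 (-0.44).

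PolyA libraries compared with total libraries, in a joint fit, gave 3 genes higher in polyA (LEU2, CPA1 and GCN4) and 16 lower, where 44.5% of all genes were called (23.7% higher, 20.8% lower). The median of the 45 was -0.04 and that of all genes 0.04. Long genes were among the lowest: ARO1, which encodes a pentafunctional enzyme of the shikimate pathway over 4767 bp (-1.13 ± 0.04, edgeR adjusted p = 7.6e-19), TRP5 over 2124 bp (-0.60 ± 0.06, edgeR adjusted p = 2.4e-09) and LYS2 over 4179 bp (-0.58 ± 0.04, edgeR adjusted p = 3.0e-12). BAT1 and HIS1, not called here, were higher in polyA with the RNA sample as a block (adjusted p = 0.030 and 0.0032). Leaving out 1 library raised the number higher to 5 or 6 in 9 of the 24 refits, namely without replicate 1 or 2 of code 18 in G1 or M, replicate 1 or 3 of code 14 in G1 or replicate 1 or 2 of code 14 in M among polyA libraries, or replicate 2 of code 14 in G1 among total libraries. The 9 genes of 2000 bp or more had a median of -0.43, and the 36 shorter ones -0.02; over all genes of these lengths the medians were -0.15 and 0.11. Across the 45 genes the Spearman correlation of this log2 ratio with coding length was -0.583, and -0.392 across 5662 genes; genes share libraries and are not independent replicates, so this is a description. ILV5, of 1188 bp, was low for its length (-0.52 ± 0.05, edgeR adjusted p = 2.0e-09). With library totals in place of TMM factors the median of all genes moved to 0.51, and 32 of the 45 were called higher and 4 lower, so that directions here hold relative to the TMM scaling.

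**Figure D4:**
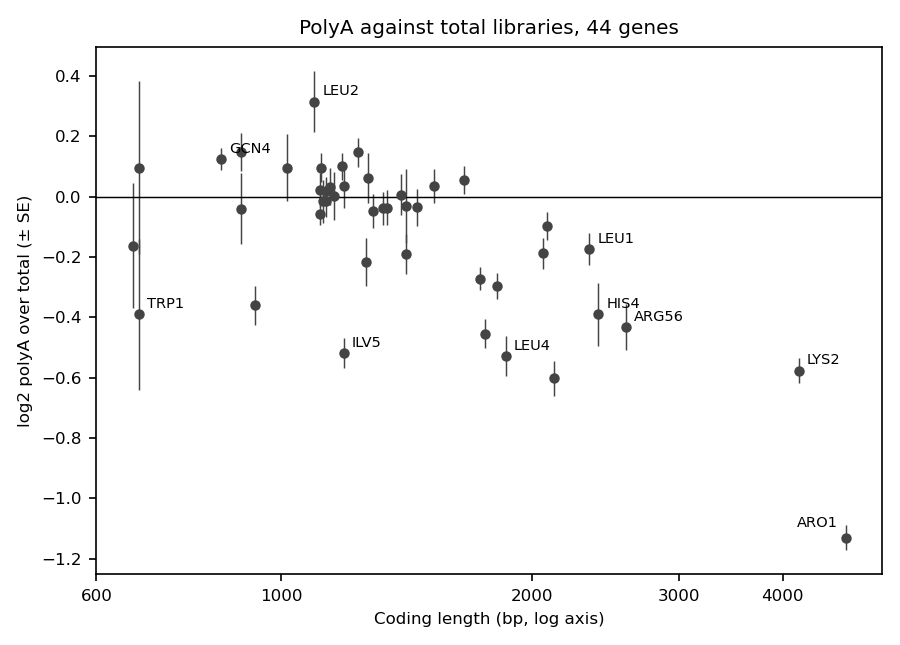
Log2 ratio of polyA over total libraries (vertical axis, ± SE, from the joint fit of 24 libraries) against coding length (horizontal axis, log scale, bp) for 44 of the 45 genes. ARO1 and LYS2, the longest genes plotted, lie at -1.13 and -0.58, and ILV5, of 1188 bp, at -0.52.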

How the data were processed

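RNA from 3 biological repeats of each strain and arrest was made into a polyA-selected and a total RNA library with rRNA left in. Per the labels and the study's methods, single-end strand-specific reads of 76 bases were trimmed (cutadapt 1.9.1), aligned to R64 with STAR 2.5.2a and counted with RSEM 1.3.0, and the authors tested them with DESeq2 1.12.3. The deposited table holds expected counts and TPM, a length-scaled value, per gene; 24 columns of expected counts were used and the 24 TPM columns were not. Column names give arrest, library, a strain code and a repeat, and 0 columns could be tied to a named strain.

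Counts were rounded. Of 7218 features, 92 spike-in and 16 rRNA features were left out, which left 7110. After edgeR's filterByExpr and TMM scaling (edgeR 4.0.16, R 4.3.3), arrest by code means were fitted for each library type with the quasi-likelihood test, and polyA against total in a joint fit of 24 libraries. M against G1 is the mean of both codes. P-values were adjusted by Benjamini-Hochberg over all genes tested, with calls under 0.05, and the SE is the size of the log2 difference divided by the root of F. DESeq2 1.42.0, other scalings, no filter, rRNA kept, replicate blocks, single codes and each library left out were alternatives. The fit was tested on simulated data with known changes.

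The 45 genes and the lists were chosen with earlier results of these data known. Values in every polyA library are given for GCN4, SNZ1, SNO1, HIS3, LEU2, TRP1, the 5 isoenzyme pairs, the 2 genes per pathway with the largest M against G1 difference, and the 5 with the largest code difference in each arrest; ILV6 and the 3 genes given in total libraries were added after their values were seen. The values of 1 of the 45 genes, counted with the others, and 1 sequence are not reported here. All 45 identifiers matched RefSeq locus tags of R64, from which coordinates and promoter windows were read.

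M and G1 samples with the same code and replicate number are the same culture by the protocol, so the number pairs them; their deviations from group means correlated at -0.203 to 0.512 in polyA and 0.0194 to 0.0943 in total libraries. PolyA and total libraries of the same RNA correlated at -0.0404 to 0.314. Read depth is 9.64e+06 to 2.17e+07 gene counts in polyA and 5.64e+05 to 9.30e+05 in total libraries, so low genes are less precise in total libraries.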

Additional observations from a re-analysis of the deposited data

Results flagged for a closer look

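Of 180 groups of 6 libraries (45 genes in M and G1, polyA and total), 3 held a library far from the other 5. The cut used is passed by about 1 group in 20 when all 6 libraries come from a single population. Each group here pooled 3 libraries of code 18 with 3 of code 14, and a difference between the codes widens its range. That rate therefore does not apply, and the count of 3 is given without an expected number. HIS1 in M total libraries had 251 CPM in replicate 2 of code 18. ILV5 in G1 total libraries had 1608 CPM in replicate 3 of code 14. SER33 in M total libraries had 85.5 CPM in replicate 2 of code 14.

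The difference between the codes changed between M and G1 for 29 genes in polyA libraries by edgeR's interaction test. The log2 interactions, code 18 minus code 14 in M less the same in G1, are given for 28 of them: ARG1 2.27, ARG3 1.11, ARG4 1.30, ARG5,6 0.94, ARO1 0.55, ARO2 0.57, ARO3 1.14, ARO4 0.66, TRP2 0.57, TRP3 0.80, TRP4 0.61, TRP5 0.94, ILV1 0.48, ILV6 1.08, LEU1 0.62, LEU4 1.31, HIS1 0.81, HIS3 1.01, HIS4 2.48, HIS5 1.65, HIS7 0.64, LYS1 0.93, LYS2 0.51, LYS20 0.85, LYS21 0.65, SNO1 3.27, SNZ1 1.97 and SER1 0.60. All 29 were positive, where 3.65% of all genes tested were called.

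In total libraries the interaction was called for 16 genes, where 2.63% of all genes tested were. Those given here for 15 of them were ARG1 1.72, ARG4 0.88, ARO1 0.40, ARO3 1.38, ARO4 0.63, TRP2 0.74, TRP4 1.29, TRP5 0.56, LEU1 0.63, LEU4 1.12, HIS1 0.90, HIS4 1.99, HIS5 1.63, LYS20 0.70 and SNZ1 1.74. All 16 were positive.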

How the results depend on the processing

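Of the gene-level comparisons with the alternatives, 7106 kept direction and side of the threshold, 166 were called in neither fit and changed sign (HIS1 in M against G1 within code 14 is an example), 114 passed the threshold newly, 227 no longer passed, and 47 were called in at least 1 fit and changed sign. Those 47 were all in M against G1 within a single code or in polyA against total without TMM. M against G1 within code 14 in polyA libraries gave HIS7 -0.23, HIS4 -0.83, ARO1 -0.065, ARG5,6 -0.41, ARG4 -0.47, LYS1 -0.039, ARG3 -0.21, TRP3 -0.13, LEU4 -0.31 and ARG1 -0.57, and within code 18 ILV6 0.29, ARO3 0.50, ILV1 0.099, TRP5 0.35, ARO2 0.25, HIS5 0.59, SNO1 1.57, SNZ1 0.31 and HIS3 0.35. In total libraries code 14 gave HIS4 -0.80, TRP4 -0.27, LEU4 -0.52 and ARG1 -0.55, and code 18 ARO4 0.26, ILV6 0.058, ARO3 0.60 and SNZ1 0.35. PolyA against total with library totals called 36 genes (32 higher, 4 lower; 19 with TMM), and the changed signs were ARO4 0.41, ILV6 0.11, HIS4 0.076, LYS21 0.43, LYS20 0.42, LYS4 0.37, ARG5,6 0.035, SER3 0.44, ILV1 0.20, LEU1 0.30, SER33 0.28, LYS1 0.45, ILV3 0.015, BAT2 0.46, TRP3 0.43, SNZ1 0.42, ILV2 0.28, LYS9 0.43, ARG1 0.25 and LEU9 0.17. The setting shifts the median of all genes to 0.51.

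Leaving out each library in turn gave 23 to 27 called genes for M against G1 in polyA and 15 to 20 in total libraries, 39 to 40 and 30 to 33 for the codes in G1, 11 to 14 and 11 to 13 for the codes in M, 19 to 33 and 10 to 17 for the interaction, and 18 to 21 for polyA against total; the cause of the low interaction counts was not tested. With the replicate block by culture, M against G1 called 25 genes in polyA and 19 in total libraries and the interaction 23 and 16; with the RNA sample as a block, polyA against total called 21. Whether the replicate number marks a shared repeat across the codes is not stated, and not every pair deviated together (correlations -0.0177 to 0.263 in polyA, -0.0569 to 0.137 in total); as a block it called 41 and 33 genes in G1, with ILV2 added in polyA libraries (adjusted p = 0.045), and 14 and 12 in M. Calls that changed under the culture or RNA block stand beside their results. No other call changed under them in M against G1 over both codes, the interaction or polyA against total. Calls of M against G1 within a single code were not compared under the culture block. DESeq2 gave no adjusted p for the interaction of 10 genes in total libraries. The depth of total libraries left SNO1 and TRP1 untested there.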
